A study of Homo sapiens with 8 samples.

Results

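The genes examined were 6 genes of DNA mismatch repair, MSH3, MSH6, MLH3, PMS1, PMS2 and EXO1, taken by symbol from a table of 17649 genes. All 6 were listed, with a value above 0 in each of 8 RNA-Seq libraries. The libraries came from MDA-MB-231 cells, an established estrogen receptor-negative human breast cancer line. There were 4 control libraries, from cells given PBS, and 4 libraries from cells given N-carboxymethyllysine (CML, written NCML in the titles) at 1 μM for 48 hours, all in medium with 5 mM glucose. CML is an advanced glycation end product, a lysine altered by sugar-derived carbonyls that accumulates in diabetes, and the comparison asks what transcripts change when it is added. One cell line stands for the tumor, without stroma, vessels or immune cells.

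Mismatch repair removes base mispairs and small loops that DNA polymerase leaves behind. MutS proteins recognise the error, and MSH6 or MSH3 joins a common partner to do so: the MSH6 complex reads mispairs and short loops, the MSH3 complex reads larger loops. MutL proteins then nick the new strand. PMS2 is the subunit that carries the main nicking activity, MLH3 forms a complex used mostly in meiosis, and PMS1 forms a complex without a settled role. EXO1 digests the nicked strand, after which RPA, PCNA, RFC, DNA polymerase delta and LIG1 fill and seal the gap. Loss of this pathway gives microsatellite instability in tumors.

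Promoters of the 6 genes were searched for the E2F-type words TTTCCCGC, TTTCGCGC, TTTGCCGC and TTTGGCGC on both strands. RefSeq windows on GRCh38.p14 run from 250 bases before to 50 bases after a transcript start, and 11 windows matched the 6 genes. A word occurred in at least 1 window of 4 of the 6 genes, against 3.99% of 27305 genes, and no word occurred in the windows of MLH3 and PMS1. The same words occurred in 14 of 19 matched genes of a list of S phase genes and in 4 of 12 matched genes of the resynthesis step. The windows of MSH6, PMS2 and EXO1 follow, each on its gene's strand and 5′ to 3′, with the words or their reverse complements in capitals, and are shown because they hold the sequence feature that these genes share. MSH6 lies on the plus strand (chr2:47782895-47783194), PMS2 on the minus strand (chr7:6009057-6009356) and EXO1 on the plus strand (chr1:241847954-241848253).

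MSH6: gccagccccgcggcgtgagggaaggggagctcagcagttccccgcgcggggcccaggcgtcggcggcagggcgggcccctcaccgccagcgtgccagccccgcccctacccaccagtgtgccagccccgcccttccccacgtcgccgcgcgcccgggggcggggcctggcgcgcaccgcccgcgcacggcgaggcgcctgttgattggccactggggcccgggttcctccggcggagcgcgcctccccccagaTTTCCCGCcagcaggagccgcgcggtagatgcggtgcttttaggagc
PMS2: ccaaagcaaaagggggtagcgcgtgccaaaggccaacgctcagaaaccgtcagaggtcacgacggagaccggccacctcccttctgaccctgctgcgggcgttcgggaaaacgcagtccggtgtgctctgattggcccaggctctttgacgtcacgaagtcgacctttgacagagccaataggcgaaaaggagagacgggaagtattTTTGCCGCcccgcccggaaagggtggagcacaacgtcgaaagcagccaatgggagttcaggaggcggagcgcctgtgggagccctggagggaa
EXO1: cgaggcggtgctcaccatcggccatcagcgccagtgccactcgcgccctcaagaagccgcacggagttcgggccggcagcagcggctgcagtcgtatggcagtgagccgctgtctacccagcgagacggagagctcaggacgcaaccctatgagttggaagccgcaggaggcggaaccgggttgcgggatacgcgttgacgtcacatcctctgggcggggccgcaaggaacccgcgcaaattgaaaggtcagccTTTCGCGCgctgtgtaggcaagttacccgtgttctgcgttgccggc

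The word of PMS2, TTTGCCGC, lies 43 bases before the transcript start of the window shown and 100 bases before another annotated start. Those of MSH6 (TTTCCCGC) and EXO1 (TTTCGCGC) lie 3 and 4 bases after the transcript start of the window shown for each gene. These are letter matches and not measured binding.

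Levels are given as CPM, read counts scaled within each library, as in the deposited table, and are not divided by transcript length. The libraries did not sum to a common total, with sums from 986730 CPM (control replicate 2) to 1.01412e+06 CPM (CML replicate 2). For pathway analysis of tumors, xenografts and cell lines, the paper describes CPM values computed with TMM normalization factors from edgeR. The estimated depth was 16559900 to 17729502 reads per control library and 16161788 to 18954715 per CML library, so that 1 read was worth 0.0535 to 0.0622 CPM. The cell line's markers were high in every library, with VIM at 4014 to 4243 CPM and CD44 at 803 to 885 CPM. Of the luminal markers, the progesterone receptor PGR did not exceed 0.114 CPM, GATA3 stood at 3.47 to 5.61 CPM and ERBB3 at 6.22 to 7.51 CPM, while the keratin KRT8 stood at 183 to 239 CPM. The blood cell marker PTPRC did not exceed 0.650 CPM and the liver cell marker ALB did not exceed 0.521 CPM, while the endothelial marker PECAM1 stood at 2.36 to 3.84 CPM. Differences are CML minus control on log2(CPM + 1), a scale that understates changes of low genes, from limma over all genes, and a gene was called at a false discovery rate (FDR) of 0.3, the level that the study used. By that rule 158 of 17649 genes were called (0.895%), of which 119 were higher with CML (0.674%) and 39 were lower (0.221%). Quantile normalization gave a different split, 90 higher and 54 lower. At an FDR of 0.05 limma called 0 genes, while 1352 had an unadjusted p under 0.05. The p-values measure the spread between these libraries, and no label says that they came from separate cultures.

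None of the 6 mismatch repair genes was called, against the 0.895% of all genes, and none had an unadjusted p under 0.05. The groups overlapped in all 6, whereas they did not overlap in 4.34% of the 13047 genes that averaged 1 CPM or more. The CML mean was higher for 4 genes and lower for 2, with differences from −0.06 to 0.13 and a median of 0.07, against a median of 0.01 over all genes. With CML, 53.5% of all genes and 58.8% of those averaging 1 CPM or more were higher. The 95% confidence intervals allow at most a rise of 24.3% (EXO1) and a fall of 12.2% (MLH3) on the fitted scale.

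**Figure D1:**
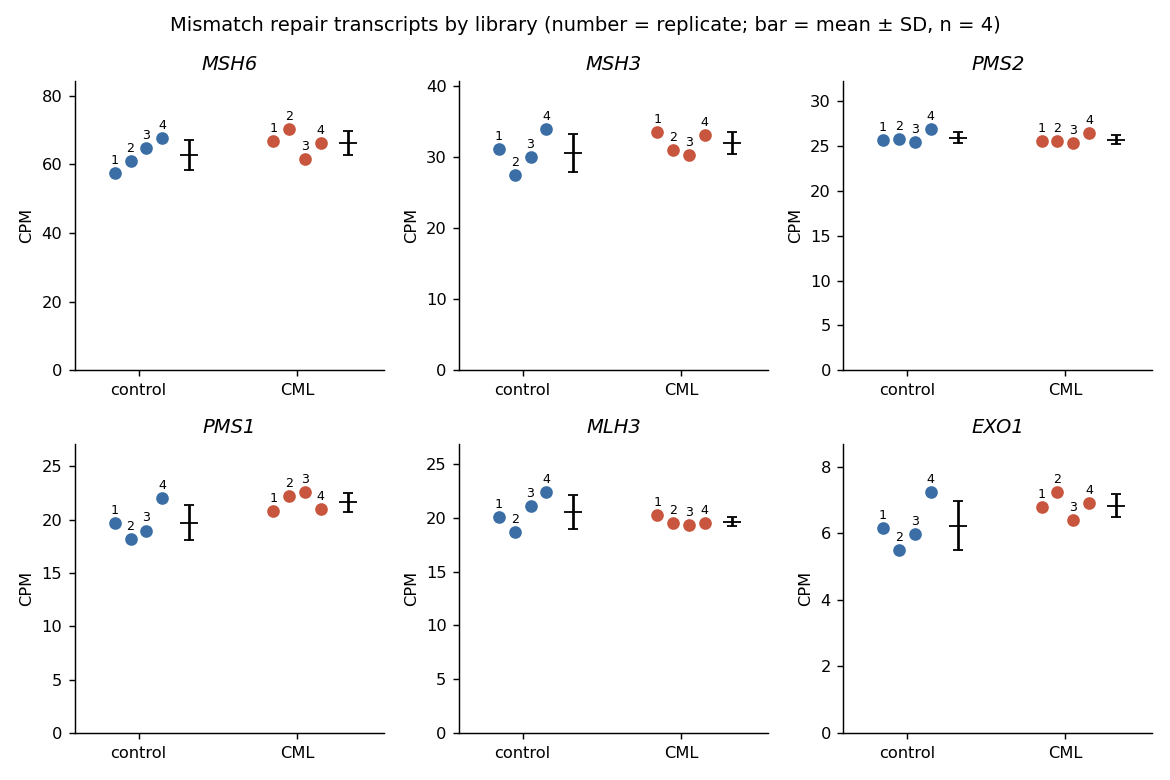
CPM of each gene (vertical axis, from 0) in the 4 control and 4 CML libraries. Points are libraries with their replicate number, and the bar is the mean ± SD (n = 4). The groups overlap in all 6 panels, and control replicate 4 is the highest control library in each.

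MSH6, the MutS subunit for mispairs, was the most abundant of the set. It stood at 57.5, 61.0, 64.8 and 67.6 CPM in control replicates 1 to 4 and at 66.9, 70.2, 61.6 and 66.1 CPM in CML replicates 1 to 4. The highest value was a CML library and the lowest a control library, and the ranges overlapped from 61.6 to 67.6 CPM. The means were 62.7 ± 4.39 and 66.2 ± 3.53 CPM (SD, n = 4), a difference of 0.08 (95% CI −0.06 to 0.22, adjusted p = 0.878). MSH6 overlaps FBXO11, a gene on the opposite strand, by 3182 bases, and whether reads were counted by strand is not given in the sources used here. FBXO11 stood at 96.4 ± 5.94 and 97.97 ± 4.73 CPM, a difference of 0.02 (adjusted p = 0.995).

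MSH3, the MutS subunit for larger loops, stood at 31.1, 27.4, 29.9 and 33.9 CPM in the controls and at 33.6, 31.0, 30.2 and 33.0 CPM with CML. All 4 CML values lay inside the control range. Means were 30.6 ± 2.69 and 31.97 ± 1.60 CPM, a difference of 0.06 (95% CI −0.09 to 0.22, adjusted p = 0.913). The ratio of MSH6 to MSH3 CPM was 2.06 ± 0.170 in the controls and 2.07 ± 0.127 with CML (exact permutation test, 2-sided, p = 0.857). With 4 libraries a group, 70 labellings are possible and the smallest p is 0.0286.

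PMS2, the nicking subunit, varied least. Control libraries held 25.7, 25.8, 25.5 and 26.9 CPM, and CML libraries 25.6, 25.5, 25.3 and 26.4 CPM. Replicate 4 was the highest of each group. The means were 25.9 ± 0.633 and 25.7 ± 0.492 CPM, and the difference of −0.01 had the narrowest interval of the set (95% CI −0.07 to 0.05, adjusted p = 0.988). The coefficient of variation was 2.44% in the controls and 1.91% with CML, below the 4.77% that counting alone would give for whole reads at this level. The values of PMS2 were not whole reads in any library, so this spread is not that of a plain count.

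PMS1, whose MutL complex has no settled role, had the largest difference on log2(CPM + 1), while the mean CPM of EXO1 changed by as much (9.80% against 9.75%). Control libraries held 19.7, 18.1, 19.0 and 22.1 CPM, and CML libraries 20.8, 22.2, 22.6 and 21.0 CPM. All CML values exceeded 3 of the 4 controls, and control replicate 4 reached into the CML range. Means were 19.7 ± 1.68 and 21.7 ± 0.887 CPM, a difference of 0.13 (95% CI −0.02 to 0.28, adjusted p = 0.708). Without control replicate 4 the difference was 0.18 with an adjusted p of 0.261, under the FDR of 0.3. That fit called 690 genes in all, and without both replicates numbered 4 PMS1 differed by 0.20 with an adjusted p of 0.338.

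MLH3, the MutL subunit used mostly in meiosis, held 20.03, 18.7, 21.1 and 22.4 CPM in the controls and 20.3, 19.5, 19.3 and 19.5 CPM with CML. The CML values sat within a narrow band inside the control range. The means were 20.6 ± 1.58 and 19.6 ± 0.419 CPM, a difference of −0.06 (95% CI −0.19 to 0.07, adjusted p = 0.897).

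EXO1, the exonuclease that removes the faulty strand, was the least abundant. Controls held 6.14, 5.50, 5.99 and 7.24 CPM, and CML libraries 6.77, 7.22, 6.40 and 6.91 CPM, from 93 to 135 reads a library. All CML values exceeded 3 controls and lay below control replicate 4. Means were 6.22 ± 0.734 and 6.83 ± 0.341 CPM, a difference of 0.12 (95% CI −0.07 to 0.31, adjusted p = 0.836). Counting alone gives a coefficient of variation of 9.48% at this level, and the controls had 11.8% and the CML libraries 4.998%.

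Per kilobase of canonical transcript (GENCODE lengths), MSH6 led with 13.5 to 16.5 CPM per kb over the 8 libraries. The ranges of MSH3 (6.17 to 7.63) and PMS1 (5.75 to 7.16) overlapped, and their difference within each library was not tested. PMS2 followed at 4.96 to 5.28, MLH3 at 2.39 to 2.86 and EXO1 at 1.59 to 2.10 CPM per kb, with no overlap between neighbours. PMS2 alone made up 49.5% to 56.4% of the summed CPM of PMS2 and its copies, so its place holds only for the reads given to PMS2. MLH3 and PMS1 have nearly equal CPM, and MLH3 has the longer transcript, at 7820 bases against 3156. Among 12928 expressed genes with a length, MSH6 lay at the 65.6th percentile per kb and EXO1 at the 18.5th.

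Control replicate 4 held the highest control value for all 6 genes. Among all genes of at least 1 CPM it was the highest control for 39.2%, and among the 6464 of those with a transcript GC content under the median of 47.9% it was the highest for 61.4%. CML replicate 4 was the highest CML library for 31.5% of all genes of at least 1 CPM and for 49.97% of those low-GC genes. It was the highest for only 1 of the 6 mismatch repair genes. The transcripts of the 6 genes have a GC content of 36.4% (PMS1) to 47.2% (PMS2). Control replicate 2 was the lowest control for 4 of the genes, and CML replicate 3 the lowest CML library for 5. The part of GC content in these values was not tested. With GC content and transcript length removed from every library, in a fit of genes averaging 1 CPM or more, none of the 6 genes was called and PMS1 and EXO1 each differed by 0.10.

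**Figure D2:**
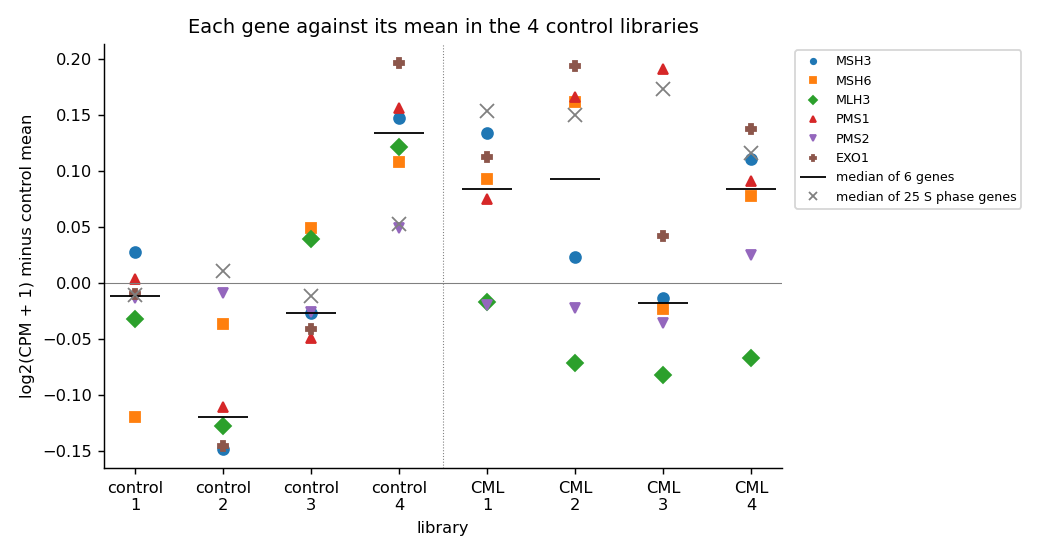
Each gene's log2(CPM + 1) minus its mean in the controls (vertical axis) for the 8 libraries. Dashes are the median of the 6 genes and crosses the median of 25 S phase genes. The median of the 6 genes was 0.13 in control replicate 4 and −0.02 to 0.09 in the CML libraries, while that of the S phase genes was 0.12 to 0.17 with CML and at most 0.05 in a control.

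PMS2 shares long stretches with a set of copies, so its reads can be split among them. Dividing by the value of 1 read gave whole numbers (within 0.02 reads) in all 8 libraries for the other 5 genes and in none for PMS2. PMS2CL, the largest copy, was also not whole in any library, but the sum of PMS2 and PMS2CL was whole in 5 of 8. The sum of PMS2 and all 8 copies was whole in 0 of 8. PMS2 alone made up 49.5% to 56.4% of the summed CPM of PMS2 and its 8 copies. That sum was 51.9, 46.8, 50.6 and 52.1 CPM in the controls and 45.3, 47.9, 48.7 and 49.6 CPM with CML. The ranges overlapped, with means of 50.3 ± 2.48 and 47.9 ± 1.83 CPM (exact permutation test, 2-sided, p = 0.171). PMS2CL stood at 17.0 ± 1.51 and 15.4 ± 1.59 CPM, a difference of −0.13 (adjusted p = 0.836).

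**Figure D3:**
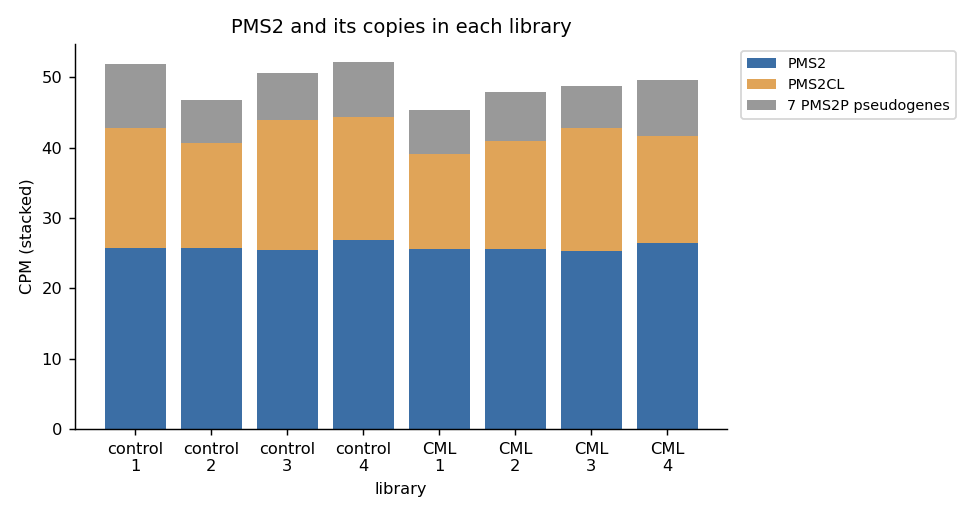
CPM of PMS2, PMS2CL and 7 PMS2 pseudogenes, stacked from 0, in each library. PMS2 stays between 25.3 and 26.9 CPM, and the total ranges from 45.3 to 52.1 CPM.

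One pseudogene, PMS2P6, passed the FDR of 0.3. It held 1.16, 0.83, 0.79 and 0.84 CPM in the controls and 0, 0.42, 0.02 and 0.25 CPM with CML, and the groups did not overlap. The means were 0.903 ± 0.170 and 0.173 ± 0.199 CPM, and the difference was −0.71 (adjusted p = 0.188). These are at most 19 estimated reads a library, whole in 1 of 8, and the call was lost with a pseudocount of 0.1 and without any 1 of control replicates 1, 2 and 3 and CML replicates 1, 3 and 4. The other 7 copies were not called.

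On GRCh38.p14, PMS1 lies 110 bases from ORMDL1, a regulator of sphingolipid synthesis, and PMS2 lies 165 bases from AIMP2, a scaffold of the tRNA synthetase complex, each on the other strand. AIMP2 differed by 0.04 (41.1 to 43.0 CPM in the controls and 41.0 to 44.5 CPM with CML, adjusted p = 0.884) and ORMDL1 by −0.04 (47.9 ± 2.63 and 46.5 ± 0.783 CPM, adjusted p = 0.897). The groups overlapped in both of these genes.

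**Figure D4:**
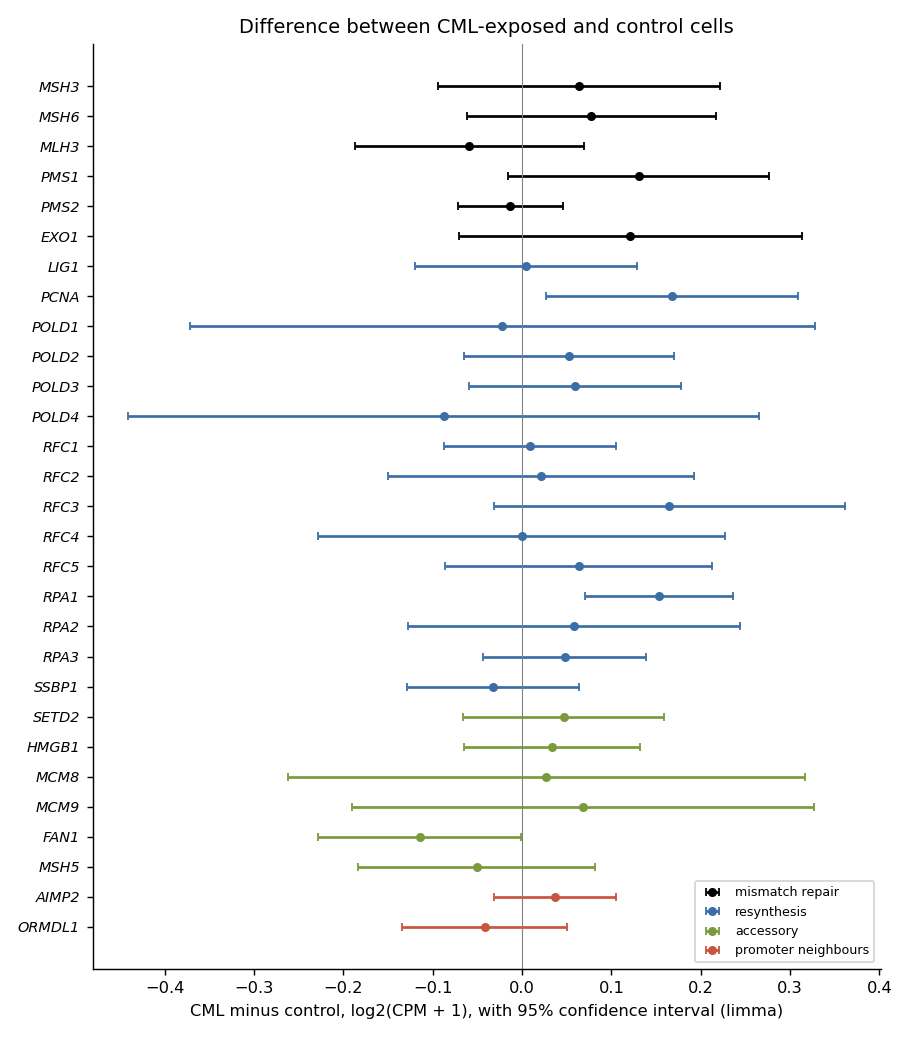
CML minus control on log2(CPM + 1) (horizontal axis) with the 95% confidence interval from limma, for the 6 genes, the resynthesis and accessory lists and the promoter neighbours. All 6 mismatch repair intervals include 0, and those of PCNA, RPA1 and FAN1 do not.

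Of the resynthesis genes, 15 of 16 were in the table (RPA4 was not listed). None was called, 11 were higher and 4 lower, and the median difference was 0.05. Among all genes averaging 1 CPM or more, 58.8% were higher. RPA1, the large subunit of the single-strand binding protein, stood at 88.2 ± 2.69 and 98.3 ± 4.11 CPM. Its groups did not overlap, with a difference of 0.15 (95% CI 0.07 to 0.24, adjusted p = 0.314). PCNA, the sliding clamp, differed by 0.17 (32.9 ± 2.43 and 36.99 ± 1.89 CPM, adjusted p = 0.554), and RFC3, a clamp loader subunit, by 0.16 (10.2 ± 0.445 and 11.6 ± 1.42 CPM, adjusted p = 0.738). The accessory genes numbered 6 of 7 (MSH4 was not listed), and none was called. FAN1, a nuclease, differed by −0.11 (24.8 ± 1.43 and 22.9 ± 0.875 CPM, adjusted p = 0.650). Other members were SETD2, HMGB1, MCM8, MCM9 and MSH5, with differences from −0.05 to 0.07.

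EXO1 was set against PCNA, a replication clamp gene, within each library. The ratio was 0.205, 0.161, 0.169 and 0.228 in the controls and 0.189, 0.185, 0.183 and 0.181 with CML. The CML libraries sat within 0.181 to 0.189, inside the wide control range. The means of 0.191 ± 0.0312 and 0.185 ± 0.0035 differed by less than the SD of the controls, though not by less than that of the CML libraries (exact permutation, p = 0.8286). PMS2 to PMS1 was 1.32 ± 0.0836 in the controls and 1.19 ± 0.0652 with CML, a log2 difference of −0.15 (exact permutation p = 0.0857, adjusted over 4 ratios 0.343). None of these 3 ratios had an unadjusted p under 0.05 or an adjusted p under 0.3 in that test.

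**Figure D5:**
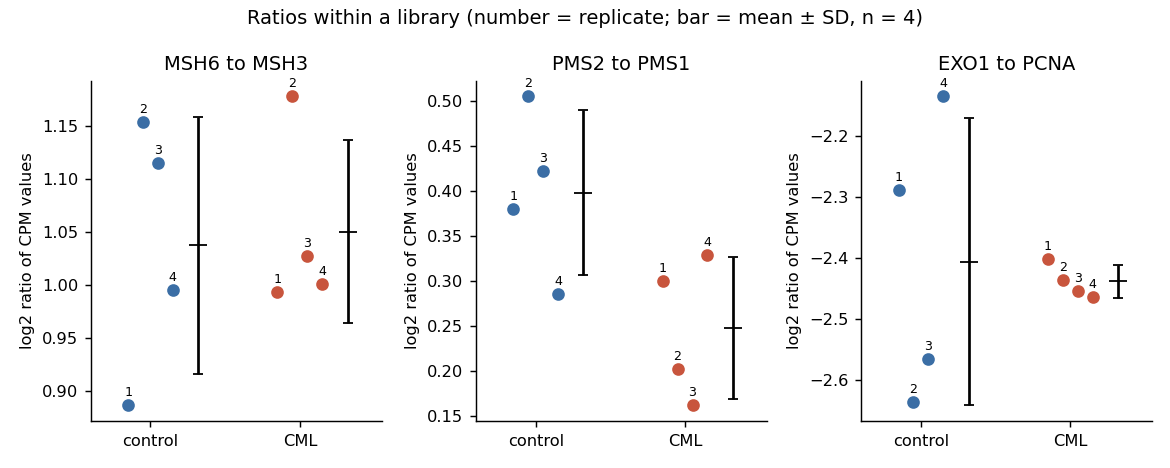
Log2 ratio of CPM values within each library (vertical axes differ by panel) for MSH6 to MSH3, PMS2 to PMS1 and EXO1 to PCNA. Points are libraries, and bars the mean ± SD (n = 4). Control and CML values overlap in all 3 panels.

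A list of 25 S phase genes was set beside EXO1, whose transcript is known to vary with the cell cycle. The list was chosen with earlier results of these data known, so its share of calls is not an independent result. All 25 were in the table, and 5 were called, all higher, against 0.674% of all genes. They were CDC45, a helicase subunit (7.505 ± 0.334 and 10.4 ± 0.417 CPM, difference 0.43, adjusted p = 0.0856); TYMS, thymidylate synthase (24.7 ± 1.63 and 31.7 ± 0.811 CPM, 0.35, adjusted p = 0.0980); UHRF1 (7.73 ± 0.554 and 9.82 ± 0.115 CPM, 0.31, adjusted p = 0.183); RRM2 (23.6 ± 2.26 and 31.2 ± 2.46 CPM, 0.39, adjusted p = 0.278); and RRM1 (56.2 ± 2.43 and 65.4 ± 3.46 CPM, 0.21, adjusted p = 0.286), the last pair being subunits of ribonucleotide reductase. UHRF1 was whole in 1 library. The median difference of the list was 0.16, and the median of the 6 mismatch repair genes was 0.07. All 25 members of the list had a positive difference, against 58.8% of all genes averaging 1 CPM or more. How the lists differ was not tested. The share of cells in a phase and the RNA per cell cannot be told apart in bulk RNA. Called members numbered 2 when libraries were centred on their median, and 1 to 8 when 1 library was left out.

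Across the 8 libraries the 6 genes moved together to a varying degree, with Pearson's r from 0.17 (PMS1 and PMS2) to 0.85 (PMS1 and EXO1) on log2(CPM + 1). The 8 points hold both groups, and control replicate 4 is high in every gene. Among 10768 genes averaging 5 CPM or more, MSH3 was most like ATF1 (r = 0.970) and MKRN2 (0.952), and MSH6 was most like UHRF1BP1 (0.976) and CSNK1G3 (0.973). MLH3 was most like MAVS (0.967) and AC026470.1 (0.966), PMS1 like NUP85 (0.974) and UROS (0.967), PMS2 like TMEM50B (0.981) and SNX30 (0.966), and EXO1 like SINHCAF (0.957) and F8 (0.954). Pearson's r over 8 libraries is given here as a description of likeness. The named genes were picked for the highest r among 10768, so their high r follows from the picking and does not make them particular to that gene.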

How the data were processed

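RNA-Seq of MDA-MB-231 cells (4 control and 4 CML libraries, grouped by treatment label and title) was read from a deposited table of CPM values that the authors made. The submitters' processing notes name hg38 and edgeR. The aligner, the counting tool and the strand setting for this experiment are not given in the sources used here. The study's methods give an Illumina HiSeq for this experiment, and the labels also name a NextSeq. All 8 columns were used, and rows of the 32 symbols listed more than once were averaged, leaving 17649 genes from 17681 rows. Estimated reads were the CPM divided by the value of 1 read. Between 84.9% and 85.9% of values were whole, so no count test was run. log2(CPM + 1) was fitted over all genes with limma 3.58.1 (R 4.3.3) with a variance trend, tested on simulated data, and adjusted by Benjamini-Hochberg. Ratios within libraries were compared by 2-sided exact permutation tests with Python 3.11.15 and scipy 1.17.1, and figures drawn with matplotlib 3.10.9. Transcript length and GC content came from GENCODE canonical transcripts on GRCh37, and promoters and coordinates from RefSeq on GRCh38.p14.

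The text names the 6 genes, list members called at FDR 0.3, the 3 resynthesis and S phase genes with the smallest p, the neighbours, PCNA, PMS2CL and, for each of the 6, the 2 most alike genes averaging 5 CPM or more. FBXO11 and the other accessory genes were named after their values were seen. The genes and lists were chosen with earlier results of these data known. Other mismatch repair genes, a gene that the rule selects and 1 of the 4 ratios are not reported here. Same-numbered libraries were checked for pairing. Alternatives included a smaller pseudocount (0.1), only genes averaging 1 CPM or more, median centring, quantile normalization, no trend, rows kept separate, the replicate block and leaving out each library. Chosen after seeing the data were the promoter words, leaving out both replicates 4, removing GC content and length (among genes averaging 1 CPM or more), and summing PMS2 with its copies.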

Additional observations from a re-analysis of the deposited data

How the results depend on the processing

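In the alternatives that kept all 8 libraries, and without both replicates 4, 0 of the 6 mismatch repair genes were called and each kept the direction of its difference. Leaving out 1 library at a time gave 0 to 1 called, and differences of 0.01 to 0.11 (MSH3), 0.04 to 0.11 (MSH6), −0.10 to −0.02 (MLH3), 0.0936 to 0.183 (PMS1, 0.196 without both replicates 4), −0.0257 to 0.0034 (PMS2, positive without control replicate 4) and 0.07 to 0.19 (EXO1). The log2 ratio difference ranged from −0.0377 to 0.0512 (MSH6 to MSH3, negative without control replicate 1, control replicate 4 or CML replicate 2), −0.19 to −0.11 (PMS2 to PMS1) and −0.11 to 0.0583 (EXO1 to PCNA, positive without control replicate 1 or 4). Over all genes, 158 calls (119 higher, 39 lower) became 53 (37 and 16) with libraries centred on their median, 321 (246 and 75) without both replicates 4 and 859 (547 and 312) with GC content and length removed among genes averaging 1 CPM or more, a filter that alone gave 141. Leaving out 1 library gave 20 (without CML replicate 2) to 690 (without control replicate 4), with 16 to 536 higher and 4 to 154 lower. Resynthesis calls were 1 (RPA1) with only genes averaging 1 CPM or more, 2 (RPA1 and PCNA) with that filter and GC content and length removed, and 0 to 1 without 1 library. S phase calls were 2 when centred, 3 with quantile normalization, 8 with the filter and GC content and length removed (5 with the filter alone), and 1 to 8 without 1 library. The PMS2P6 call was lost, leaving 0 calls among neighbours and copies, with a smaller pseudocount (0.1) or without both replicates 4. Counts were 0 to 1 without 1 library. With only genes averaging 1 CPM or more the count was also 0, but PMS2P6, at a mean of 0.538 CPM, was not in that fit. The causes were not tested. Deviations of same-numbered libraries correlated from −0.06 to 0.33 (mean 0.110), and those of different numbers from −0.304 to 0.113 (mean −0.0362). The same-numbered values were not over 0.1 in every pair, so the numbers were not taken to pair the libraries. They were highest for replicates 4 (0.334) and replicates 1 (0.199), and a partial pairing was not tested. With the replicate block 189 genes were called, 2 S phase genes and 0 neighbours or copies, and of the mismatch repair genes 0. Counting error is largest for the genes of few reads, EXO1 with 93 to 135 and PMS2P6 with at most 19 a library.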
